A study of Mus musculus with 13 samples.

Results

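The semaphorins, their plexin and neuropilin receptors and the LIM kinases were described across mouse mammary tumour cell lines with and without JNK. The genes were taken by symbol: the semaphorins of classes 3 to 7, the plexins of the A, B, C and D subfamilies, Nrp1, Nrp2, Limk1 and Limk2. This gave 33 of the 23845 genes in the deposited tables, namely 20 semaphorins, 9 plexins, 2 neuropilins and 2 LIM kinases. RNA-seq had been made of 13 primary mammary tumour cell lines of strain FVBN/J, in a study whose title names blockade of the JNK pathway in HER2-driven breast cancer. The labels call 6 of them wild type (WT) and 7 JNK knockout, JNK being the kinases that phosphorylate the N-terminus of c-Jun. All lines had been isolated from tumours, grown for early passages on collagen I in 2% serum and then kept on standard dishes in 10% serum with 20 ng/ml EGF and 10 µg/ml insulin. The labels do not name the HER2 transgene, the JNK genes removed, the Cre or promoter used, the animals' age or the passage number. Each library was a separate line, and WT replicates 4 and 5 have titles that share a number, so that 1 animal may have given both. The labels do not tie lines to animals, and p-values measure the spread between lines only.

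Semaphorins are secreted or membrane-bound guidance cues, first known from growing axons, that also act in epithelia, vessels and immune cells. Plexins are their signalling receptors and act on small GTPases, while neuropilins are co-receptors that bind the secreted class 3 semaphorins and VEGF. LIM kinases act further down, after kinases that small GTPases control, and phosphorylate cofilin, which stops it from severing actin filaments. In mammary epithelium, plexin B receptors are known to associate with the receptor tyrosine kinases ErbB2 and Met.

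Depth was similar, with 38298602 to 46689809 expected counts in a line. Mapk8, which encodes JNK1, was 29.8 ± 5.38 CPM (counts scaled to a common library size) in the 6 WT lines and 5.76 ± 1.32 CPM in the 7 knockout lines (± SD), and Mapk9, which encodes JNK2, was 60.0 ± 6.59 and 19.3 ± 5.11 CPM. Both fell (log2 fold changes of -2.37 and -1.63, adjusted p = 9.1e-05 and 0.00091 by edgeR's quasi-likelihood test with Benjamini-Hochberg adjustment), in the direction the labels give, while Mapk10 had only 14 and 9 reads in the groups. The 12 luminal markers summed to 6907 to 7883 CPM in WT lines and 1126 to 5239 CPM in knockout lines. Not each was present in every line, as Krt19 was 0 in WT replicates 1, 5 and 6 and Elf5 in WT replicate 1. In knockout replicate 2, Krt8 (351 CPM) and Krt18 (563 CPM) made up most of the sum. The 10 basal markers summed to 56.6 to 258 CPM in WT lines and 585 to 26922 CPM in knockout lines. Of markers of other cells that use semaphorin receptors, 8 of 10 endothelial, 8 of 11 leukocyte and 6 of 10 neural and glial genes stayed below 1 CPM in every line. The endothelial markers Pecam1, Cdh5 and Cldn5 reached at most 0.505, 0.346 and 0.0254 CPM, and the leukocyte marker Ptprc at most 0.178 CPM. The members of these lists above 1 CPM were Egfl7 (up to 7.62 CPM) and Eng (up to 3.10 CPM) among endothelial genes, and Cd14 (6.63 to 554 CPM), Cd68 (2.16 to 18.7 CPM) and Csf1r (up to 6.32 CPM) among leukocyte genes, none of which passed the test. 2 lines stood apart. WT replicate 3 held the highest Col1a1 (184 CPM) and Sox10 (544 CPM), and knockout replicate 2 held the highest Vim (4042 CPM) and the lowest Epcam (40.8 CPM).

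4 of the 33 genes passed the test between the groups. Limk2 was higher in knockout lines, and Plxnb1, Sema4c and Sema4d were lower. Over all 13058 genes tested, 8.51% passed, 4.33% as higher and 4.17% as lower. 29 of the 33 genes had enough reads for the test, of which 1 was called higher, 3 lower and 25 in neither direction. Their median log2 fold change, knockout minus WT, was -0.48, against 0.01 over all genes tested, with 14 values above 0 and 15 below. For Limk2, Plxnb1 and Sema4c every knockout line lay outside the range of the WT lines, which 4.05% of all tested genes also showed, 2.08% as higher and 1.97% as lower. The same 3 genes did not overlap in TPM (transcript abundance scaled for gene length). The other 4 genes were Plxna4 (57 reads in WT lines and 35 in knockout lines), Plxnc1 (4 and 7), Sema3g (55 and 5) and Sema5b (5 and 0), all close to absent and not tested.

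**Figure D1:**
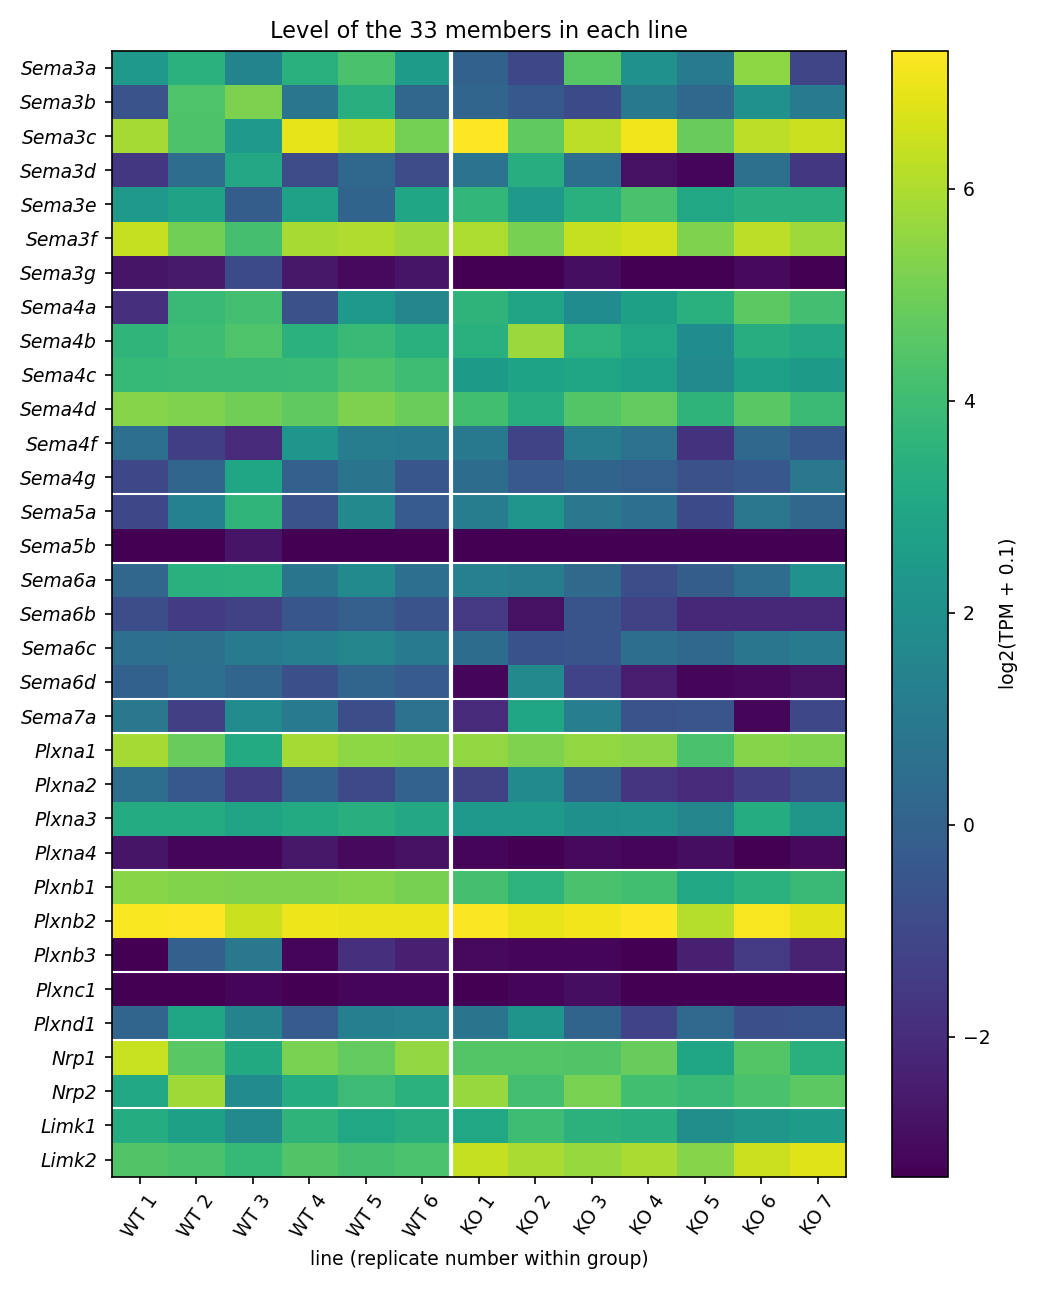
Each row is a gene and each column a line, with WT lines left and knockout lines right of the white bar; colour gives log2(TPM + 0.1). Plxnb2, Sema3c and Sema3f are bright in nearly every line, Limk2 is brighter in all 7 knockout lines, and Plxna4, Plxnc1, Sema3g and Sema5b are dark throughout.

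**Figure D2:**
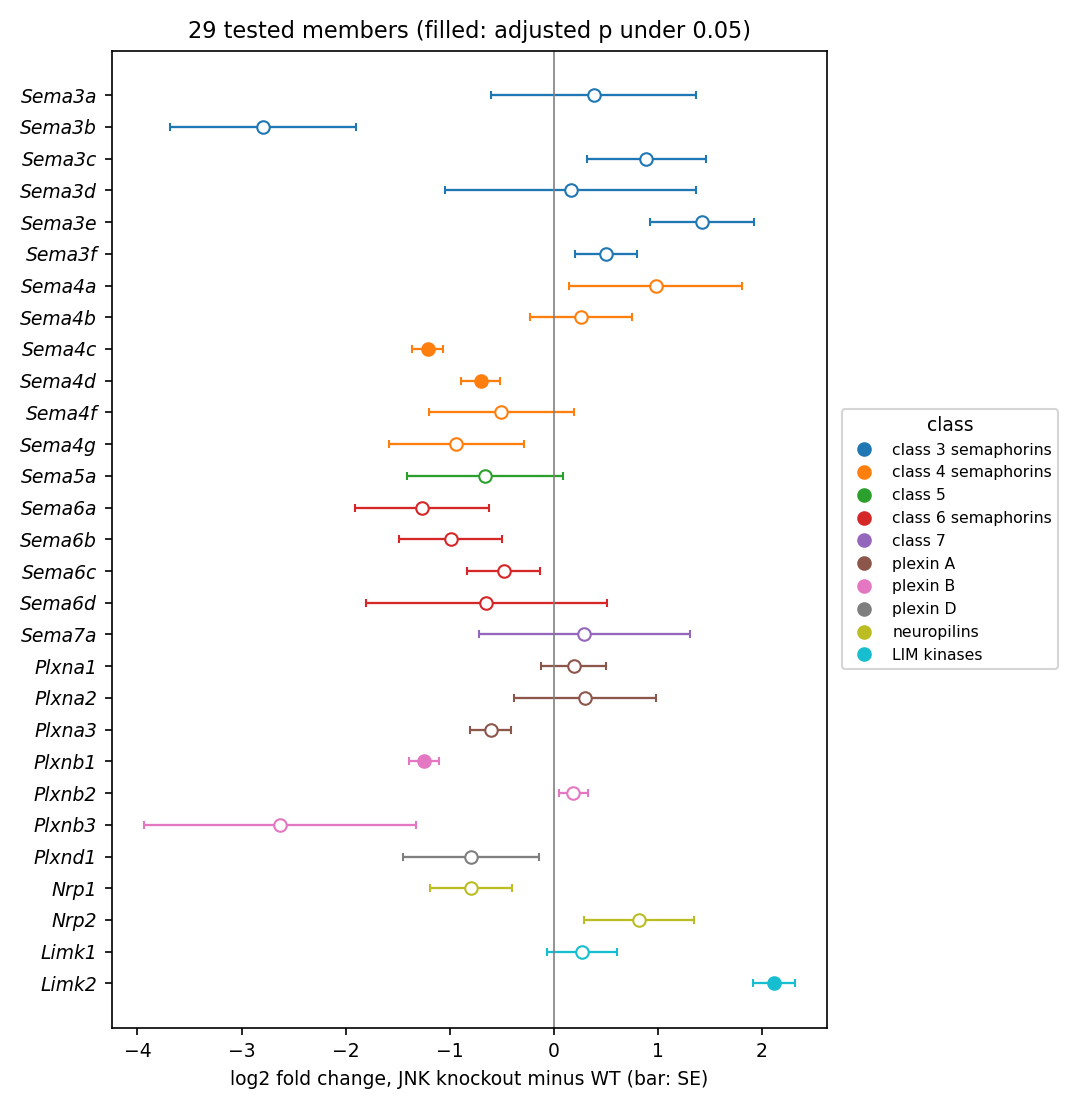
Points give the log2 fold change of the 29 tested genes, knockout minus WT, bars the SE, and filled points an adjusted p under 0.05. Filled points are Limk2 at 2.11, Sema4d at -0.70, Sema4c at -1.21 and Plxnb1 at -1.25; several open points lie farther from 0 with wider bars.

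The stretches before the annotated starts of the 4 called genes are shown because JNK phosphorylates c-Jun, a subunit of the factor AP-1, and because these are the members that changed between the groups. They come from the RefSeq promoter table on GRCm38.p6, read 5′ to 3′ on the strand of the gene. Each was cut where an exon of the gene begins, or at its outermost start where that lay close by. By the RefSeq gene positions given below, the stretch of Limk2 lies before the whole gene. Those of Plxnb1, Sema4c and Sema4d lie inside the span of the gene, before a start of a shorter form. Capitals mark the letters TGANTCA, N being any base, a looser pattern than the AP-1 site TGA(C/G)TCA. The match of Sema4c, TGACTCA, has C or G at its centre. Those of Limk2 and Sema4d, TGAATCA, have A there and fit the looser pattern only. The shares given below also count any centre base. The stretches shown are chr11:3409277-3409488 (minus strand) for Limk2, chr9:109095186-109095388 (plus strand) for Plxnb1, chr1:36558382-36558631 (minus strand) for Sema4c and chr13:51748920-51749060 (minus strand) for Sema4d.
Limk2: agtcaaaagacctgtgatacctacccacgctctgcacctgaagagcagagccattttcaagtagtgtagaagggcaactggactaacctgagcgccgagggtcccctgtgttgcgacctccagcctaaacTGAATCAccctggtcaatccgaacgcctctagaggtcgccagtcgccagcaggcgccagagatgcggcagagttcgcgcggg
Plxnb1: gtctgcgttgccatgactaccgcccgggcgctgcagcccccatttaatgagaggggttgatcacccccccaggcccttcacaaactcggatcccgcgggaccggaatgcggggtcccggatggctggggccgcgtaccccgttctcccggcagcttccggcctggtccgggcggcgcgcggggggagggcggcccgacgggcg
Sema4c: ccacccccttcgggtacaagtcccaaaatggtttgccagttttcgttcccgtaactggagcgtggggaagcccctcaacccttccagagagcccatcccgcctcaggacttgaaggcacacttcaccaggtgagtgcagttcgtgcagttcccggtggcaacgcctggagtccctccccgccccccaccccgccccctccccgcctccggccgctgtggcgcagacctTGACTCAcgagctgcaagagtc
Sema4d: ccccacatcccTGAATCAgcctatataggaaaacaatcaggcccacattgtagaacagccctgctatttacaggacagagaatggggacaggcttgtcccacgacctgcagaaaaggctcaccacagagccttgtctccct
In windows of 250 bases before each start, the letters TGANTCA lay 120 bases before a start of Limk2 (in 1 of its 3 windows). They lay 22 bases before a start of Sema4c (1 of 2) and 239 bases before a start of Sema4d (1 of 3). These windows of Sema4c and Sema4d lie inside the longest form of the gene. The window of Plxnb1 did not hold these letters. The letters occurred in 6.75% of all 32851 windows, and 7.82% of the 27025 genes had at least 1 window with them. Among the 9857 tested genes with windows, from which the called genes came, the share was 5.93%. Limk2 and Sema4d, with 3 windows each, had more places to hold the letters than a gene with 1. Of the 28 genes of these families that had windows, 4 held them, Limk2, Sema4c, Sema4d and Sema6b, and none held the CRE letters TGACGTCA, which 1.55% of all windows did. A match describes the letters only, and binding was not measured.

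Among the ligands, the 2 that passed the test were membrane-bound class 4 semaphorins, and both fell. Sema4c encodes a transmembrane semaphorin that binds plexin B2 (GRCm38, chr1:36548639-36560699). It was 27.3 CPM in the lowest WT line, 31.4 at the median and 40.1 in the highest, and 10.6, 13.7 and 16.8 CPM in the knockout lines. The lowest WT line was thus above the highest knockout line, and no line of either group stood apart. The means were 32.1 ± 4.60 CPM (SD, n = 6) and 13.9 ± 2.22 CPM (SD, n = 7), a 2.32-fold lower level (log2 fold change -1.21, SE 0.15, adjusted p = 0.0011 by edgeR's quasi-likelihood test). Sema4c passed in all 25 alternative fits, with log2 fold changes of -1.43 to -1.14. In bulk libraries such as these, fewer cells of a type and less RNA per cell cannot be told apart. An antisense transcript, D430040D24Rik, overlaps exons of Sema4c, as Gm7628 does at Plxnb1. Neither was a row of the tables, and reads from such a partner cannot be told apart unless the counting used strand, which no source used here states.

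Sema4d encodes the transmembrane ligand of plexin B1, also called CD100 (chr13:51685529-51793678). WT lines ranged from 62.3 CPM through a median of 85.3 to 96.2, and knockout lines from 27.9 through 47.2 to 70.3. Knockout replicates 4 and 6 lay above WT replicate 4, and the other 5 knockout lines lay below every WT line. The level was 82.7 ± 12.0 CPM (SD, n = 6) against 50.8 ± 14.1 CPM (SD, n = 7), 1.63-fold lower without JNK (log2 fold change -0.70, SE 0.19, adjusted p = 0.036 by edgeR's quasi-likelihood test). The call was lost when any of 9 lines was left out, and kept without WT replicate 4 or knockout replicates 2, 4 or 6, with adjusted p between 0.024 and 0.074 over the 13 fits. As a share of all semaphorin TPM, Sema4d was 15.9 ± 3.50% in WT lines and 7.90 ± 1.80% in knockout lines.

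**Figure D3:**
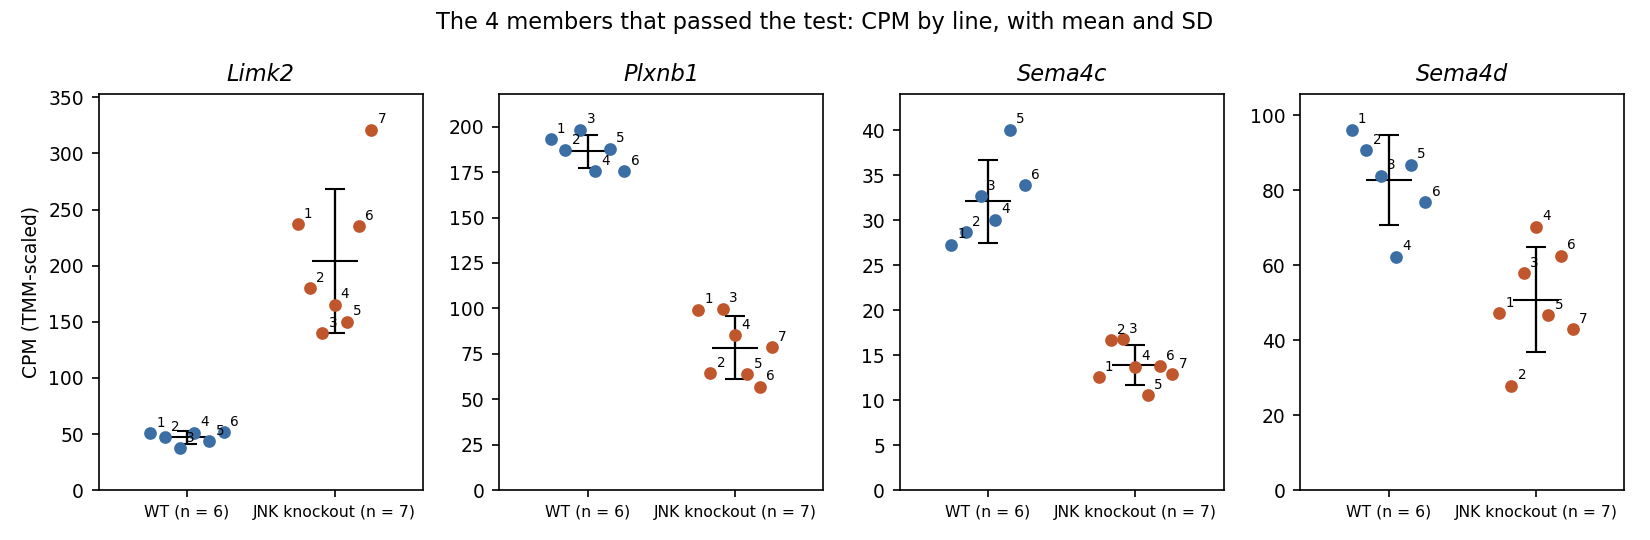
TMM-scaled CPM of Limk2, Plxnb1, Sema4c and Sema4d in each line, with WT lines in blue and knockout lines in orange; numbers are replicates, crosses the mean and bars the SD. The groups do not overlap for Limk2, Plxnb1 and Sema4c, and overlap for Sema4d, where knockout replicates 4 and 6 lie above WT replicate 4.

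The other 4 class 4 genes did not pass. Sema4a, which acts on immune cells and vessels, was 12.0 ± 13.3 CPM over WT lines (SD, n = 6) against 23.6 ± 13.8 CPM in knockout lines (SD, n = 7; adjusted p = 0.48). Sema4b was 30.4 ± 9.24 and 36.4 ± 41.0 CPM, with knockout replicate 2 at 129 CPM. Sema4f and Sema4g were low, at 3.87 and 4.98 CPM in WT lines and 2.73 and 2.60 CPM in knockout lines, and WT replicate 3 held 19.6 CPM of Sema4g. The class as a whole, summed per length, was 74.3 ± 13.3 TPM in WT and 52.6 ± 15.1 TPM in knockout lines.

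None of the 6 tested class 3 semaphorins, the secreted ligands, passed edgeR's test. They made up most of the semaphorin TPM in both group means, though under class 4 in WT replicate 3 (72.1 against 92.3 TPM) and level with it in knockout replicate 2 (77.08 TPM each). An unadjusted p under 0.05 was given to 2, Sema3b and Sema3e, which DESeq2 called and of which limma-voom called Sema3e. The class summed to 132 ± 50.6 TPM in WT lines (SD, n = 6) and 173 ± 72.3 TPM in knockout lines (SD, n = 7). Sema3c, a ligand of both neuropilins, had the highest mean TPM of any semaphorin (chr5:17574816-17730268). It ranged from 15.0 through 123 to 313 CPM in WT lines and from 81.9 through 224 to 484 CPM in knockout lines. The ranges overlapped widely, WT replicate 3 being the lowest and knockout replicate 1 the highest (log2 fold change 0.89, SE 0.57, adjusted p = 0.35). Sema3f, which signals through neuropilin 2, was 93.6 ± 39.9 and 132 ± 36.8 CPM (log2 fold change 0.50, adjusted p = 0.30).

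Sema3e, the class 3 ligand that binds plexin D1 without a neuropilin (chr5:14025276-14256689), came closest to a call as higher. WT lines held 3.15, 21.9 and 30.5 CPM at the lowest, median and highest, and knockout lines 22.4, 45.6 and 75.9. All knockout lines but replicate 2 were above every WT line. The log2 fold change was 1.43 (SE 0.50, adjusted p = 0.092 by edgeR's quasi-likelihood test), and DESeq2 and limma-voom, the other count tools, called it (adjusted p = 0.026 and 0.047).

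Sema3b, studied as a candidate tumour suppressor (chr9:107597674-107609241), varied widely among WT lines, with 1.13 CPM in the lowest, 11.6 at the median and 81.8 in the highest, against 0.938, 3.35 and 8.55 in knockout lines. WT replicates 2, 3 and 5 exceeded every knockout line, and the other 3 WT lines lay within the knockout range. The log2 fold change was -2.79 (SE 0.89, adjusted p = 0.069), and -1.92 without WT replicate 3, the highest line. DESeq2 called it (adjusted p = 0.0051), as did edgeR without WT replicate 1 (log2 fold change -3.05, adjusted p = 0.045), while limma on log2(TPM + 1) gave an adjusted p of 0.39. Sema3a, a repulsive cue acting through neuropilin 1, was 32.6 ± 20.2 and 42.6 ± 66.0 CPM, the spread in knockout lines reaching from 1.55 to 174 CPM. Sema3d was 7.56 ± 12.5 and 8.46 ± 14.6 CPM, its highest values in each group being WT replicate 3 (32.9 CPM) and knockout replicate 2 (41.0 CPM).

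The transmembrane class 5 and 6 genes and the membrane-anchored Sema7a were low, and none passed edgeR's test, also not at an unadjusted p under 0.05. DESeq2 and limma-voom each called 1, Sema6d. Sema5a (chr15:32244813-32696341) was 2.31, 9.55 and 80.1 CPM at the lowest, median and highest of WT lines and 4.16, 11.4 and 32.4 CPM in knockout lines. Its highest value was that of WT replicate 3, and its log2 fold change of -0.66 (adjusted p = 0.61) became 0.60 without that line. Sema6a, a ligand of plexin A receptors (chr18:47245254-47371200), ranged from 3.80 through 9.16 to 45.7 CPM in WT lines and from 1.98 through 5.32 to 18.2 CPM in knockout lines, with WT replicates 2 and 3 above all others (log2 fold change -1.27, SE 0.64, adjusted p = 0.23). Sema6b and Sema6c were 1.04 and 4.09 CPM in WT lines and 0.524 and 2.93 CPM in knockout lines. Sema7a, which binds plexin C1 and integrins (chr9:57939596-57962865), was 0.515, 2.84 and 6.36 CPM in WT lines and 0.0216, 1.02 and 15.7 CPM in knockout lines. The value of 15.7 CPM was knockout replicate 2, without which the log2 fold change of 0.29 was -1.04 (adjusted p = 0.88 with all lines).

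Sema6d, chosen here after its values were seen, changed its call with a single line. The gene, another class 6 ligand of plexin A receptors (chr2:124089943-124667789), ranged from 1.72 through 2.95 to 4.49 CPM in WT lines. The lowest, median and highest knockout lines held 0.025, 0.155 and 11.7 CPM, and the highest was knockout replicate 2. Each of the other 6 knockout lines lay below every WT line. With all lines the log2 fold change was -0.65 (SE 1.16, adjusted p = 0.76), and without knockout replicate 2 it was -3.32 (adjusted p = 0.026 by edgeR's quasi-likelihood test). With all lines limma-voom gave -3.40 and called it. DESeq2 gave -2.60 and called it too. Its default settings replace outlying counts in groups as large as the knockout group, so its value need not rest on knockout replicate 2 as counted.

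Among the receptors, Plxnb1 fell, while Plxnb2, the most abundant plexin, did not pass the test. Plxnb1 encodes plexin B1, the receptor of Sema4d (chr9:109093849-109119915). WT lines lay in the narrow range of 176, 187 and 198 CPM, and knockout lines held 57.0, 78.8 and 99.9 CPM at the lowest, median and highest. Every knockout line was far below every WT line. The means were 186 ± 9.18 CPM (SD, n = 6) and 78.4 ± 17.4 CPM (SD, n = 7), 2.38-fold lower (log2 fold change -1.25, SE 0.14, adjusted p = 0.00065 by edgeR's quasi-likelihood test). Of all genes tested its p ranked 11, and it passed in all 25 alternatives with log2 fold changes of -1.50 to -1.18. Both the ligand Sema4d and its receptor Plxnb1 were therefore lower in knockout lines, though with the dependence on single lines given for Sema4d.

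Plxnb2, the receptor of Sema4c (chr15:89155546-89182018), had the highest TPM of the 33 genes, 130 in WT and 128 in knockout lines. In CPM it was 336, 468 and 560 in WT lines and 399, 528 and 615 in knockout lines at the lowest, median and highest. The ranges overlapped and the log2 fold change was 0.19 (SE 0.14, adjusted p = 0.42). On log2(TPM + 1) it was -0.039, where the median of all genes was -0.19. Of the summed plexin TPM, Plxnb1 made up 18.1 ± 4.06% in WT and 7.54 ± 1.36% in knockout lines, and Plxnb2 58.6 ± 3.37% and 67.8 ± 2.04%. Plxnb3 was near absent, from 0 to 6.52 CPM in WT lines and from 0 to 0.887 CPM in knockout lines (adjusted p = 0.22).

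No plexin of the A or D subfamily passed edgeR's test, and Plxna3 alone had an unadjusted p under 0.05. Plxna1, a signalling partner of neuropilin 1 (chr6:89316313-89362613), ranged from 48.3 through 220 to 283 CPM in WT lines and from 152 through 226 to 275 CPM in knockout lines. WT replicate 3 was by far the lowest line (log2 fold change 0.19, adjusted p = 0.74; -0.016 without that line). Plxna3, a receptor used with neuropilin 2 (chrX:74328290-74344689), was tight in WT lines at 30.7, 34.1 and 37.5 CPM, against 16.4, 21.5 and 38.7 CPM in knockout lines. Knockout replicate 6 was above every WT line and the other 6 were below every WT line. The log2 fold change was -0.61 (SE 0.20, adjusted p = 0.071 by edgeR's quasi-likelihood test), and -0.79 without knockout replicate 6 (adjusted p = 0.0076). DESeq2, limma-voom and limma on log2(TPM + 1) called it with all lines (adjusted p = 0.028, 0.044 and 0.035). Plxna2 was low, at 4.57 ± 2.25 and 5.63 ± 8.09 CPM, with knockout replicate 2 at 23.7 CPM. Plxnd1, the receptor of Sema3e (chr6:115954811-115995339), was 2.84, 9.30 and 29.1 CPM in WT lines and 1.40, 4.04 and 19.7 CPM in those without JNK (log2 fold change -0.80, SE 0.66, adjusted p = 0.47), and its log2 fold change spanned -1.44 (knockout replicate 2 left out) to -0.20 (WT replicate 2 left out).

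The ratio of the neuropilins passed a test between the groups, and their single levels did not. Nrp1 (chr8:128358591-128505476) held 30.7, 99.2 and 263 CPM at the lowest, median and highest of WT lines and 40.5, 76.8 and 97.9 CPM in those without JNK (log2 fold change -0.80, SE 0.39, adjusted p = 0.21). Its value was -0.42 without WT replicate 1, the highest line. Nrp2 (chr1:62703317-62818692) held 12.0, 35.6 and 184 CPM in WT lines and 61.2, 84.1 and 194 CPM in those without JNK (log2 fold change 0.82, SE 0.53, adjusted p = 0.35). WT replicate 2 was the exception, with Nrp2 near the highest knockout line. Without it the log2 fold change of Nrp2 was 1.65 (adjusted p = 0.025 by edgeR's quasi-likelihood test).

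The log2 ratio of Nrp1 to Nrp2 within a line, taken in TPM, was 1.40 ± 1.55 in WT lines (SD, n = 6) and -0.41 ± 0.81 in knockout lines (SD, n = 7). WT lines spread from -1.20 to 3.40 and knockout lines from -1.24 to 0.74. 5 of the WT lines, all but replicate 2, were above every knockout line. The difference was -1.80 (exact permutation test over 1716 splits, two-sided, p = 0.022, adjusted p = 0.022 over the 2 ratios tested), and without WT replicate 1 it was -1.40 (adjusted p = 0.052).

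**Figure D4:**
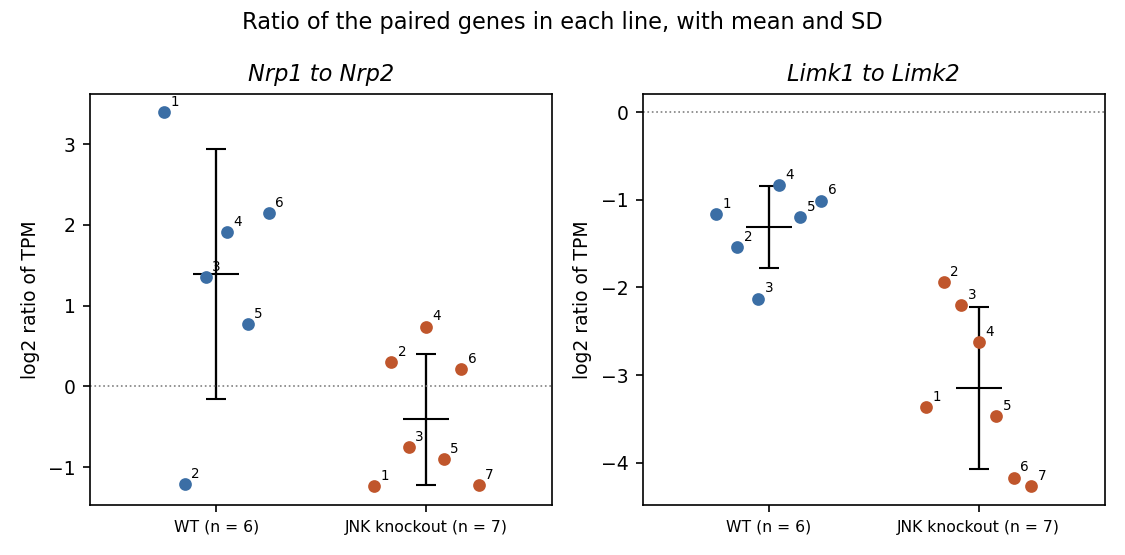
The log2 ratio of Nrp1 to Nrp2 and of Limk1 to Limk2 in each line, from TPM, with the mean and SD of each group; numbers are replicates. WT replicate 2 lies among the knockout lines for the neuropilins, and knockout replicate 2 alone lies above a WT line for the LIM kinases.

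Of the LIM kinases, Limk2 rose and Limk1 did not pass. Limk2 (chr11:3343297-3409276) encodes a kinase that Rock1 and Rock2 activate. WT lines held 37.6, 49.2 and 51.9 CPM at the lowest, median and highest, and knockout lines 140, 180 and 321 CPM. All 7 knockout lines were far above all WT lines, with knockout replicate 7 the highest. The means were 47.1 ± 5.64 CPM (SD, n = 6) and 204 ± 64.4 CPM (SD, n = 7), a 4.33-fold higher level (log2 fold change 2.11, SE 0.20, adjusted p = 0.00018 by edgeR's quasi-likelihood test). Its p ranked 4 among the 13058 genes tested, and it passed in all 25 alternatives with log2 fold changes of 1.79 to 2.19.

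Limk1, the other LIM kinase (chr5:134656039-134689859), was 6.06, 14.8 and 20.4 CPM in WT lines and 9.11, 16.1 and 32.9 CPM in knockout lines. WT replicate 3 was the lowest and knockout replicate 2 the highest line (log2 fold change 0.27, SE 0.34, adjusted p = 0.64), and without both lines the value was -0.13. Per length, Limk2 was above Limk1 in both groups, at 18.8 against 8.11 TPM in WT lines and 70.3 against 8.45 TPM in knockout lines. The log2 ratio of Limk1 to Limk2 was -1.31 ± 0.46 in WT lines (SD, n = 6) and -3.15 ± 0.92 in knockout lines (SD, n = 7), with 6 of the 7 knockout lines below every WT line. The difference was -1.84 (exact permutation test, two-sided, p = 0.0029, adjusted p = 0.0058), and it shares the Limk2 values with the test of that gene. Both LIM kinases together summed to 17.0 to 32.9 TPM in WT lines and 44.6 to 114 TPM in knockout lines.

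Genes around the LIM kinases and cofilin were read from a list of 22, of which 21 were tested. By edgeR none was called higher and 4 were called lower, against 4.33% and 4.17% of all genes tested. The median log2 fold change was -0.10, and 3 were higher at an unadjusted p under 0.05 (Pdxp, Cap1 and Cdc42). DESeq2 and limma-voom called none higher. The 4 were kinases that act on LIM kinases or myosin and a cofilin phosphatase. Pak1, the p21-activated kinase that phosphorylates Limk1, fell from 142 ± 54.2 CPM in WT lines (SD, n = 6) to 56.2 ± 22.5 CPM in knockout lines (SD, n = 7; log2 fold change -1.34, SE 0.28, adjusted p = 0.014 by edgeR's quasi-likelihood test). Rock2, a kinase that activates LIM kinases, fell from 370 ± 71.4 to 203 ± 56.4 CPM (log2 fold change -0.87, SE 0.20, adjusted p = 0.018 by the same test). The groups did not overlap for either gene, which 4.05% of all tested genes also showed. Thus 2 kinases that activate LIM kinases were lower in the lines in which Limk2 was higher. Other kinases of the list, Pak2, Pak3, Pak4, Pak6 and Cdc42bpa, were not called. Pak2 was 208 to 337 CPM in WT lines and 202 to 312 CPM in knockout lines, and Pak4 76.8 to 112 and 45.5 to 124 CPM.

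The other calls in that list were close to the threshold. Cdc42bpb, a kinase bound by Cdc42, was 180 ± 27.1 and 120 ± 25.8 CPM (log2 fold change -0.59, SE 0.16, adjusted p = 0.039). It passed in only 4 of the 13 fits that left out a line, those without WT replicate 3 or knockout replicates 2, 4 or 6. The call was also lost with WT replicates 4 and 5 summed. Ssh2, a phosphatase that removes the inhibitory phosphate from cofilin, was 38.1 ± 10.1 and 23.3 ± 4.80 CPM (log2 fold change -0.71, SE 0.20, adjusted p = 0.047). Of the 13 fits without a line it passed in 1, that without WT replicate 6, and it was lost with limma-voom, no filter and log2(TPM + 0.1). It was also lost with WT replicates 4 and 5 summed and without both WT replicate 3 and knockout replicate 2. The cofilin family itself did not pass. Cfl1, the main non-muscle cofilin, had a log2 fold change of -0.10 (adjusted p = 0.76), Cfl2 of -0.28 (adjusted p = 0.48) and the related Dstn of -0.03 (adjusted p = 0.94). Rock1 (-0.15, adjusted p = 0.67) and the LIM kinase relatives Tesk1 (0.30) and Tesk2 (0.47) also did not pass. Phosphorylation of cofilin was not measured.

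**Figure D5:**
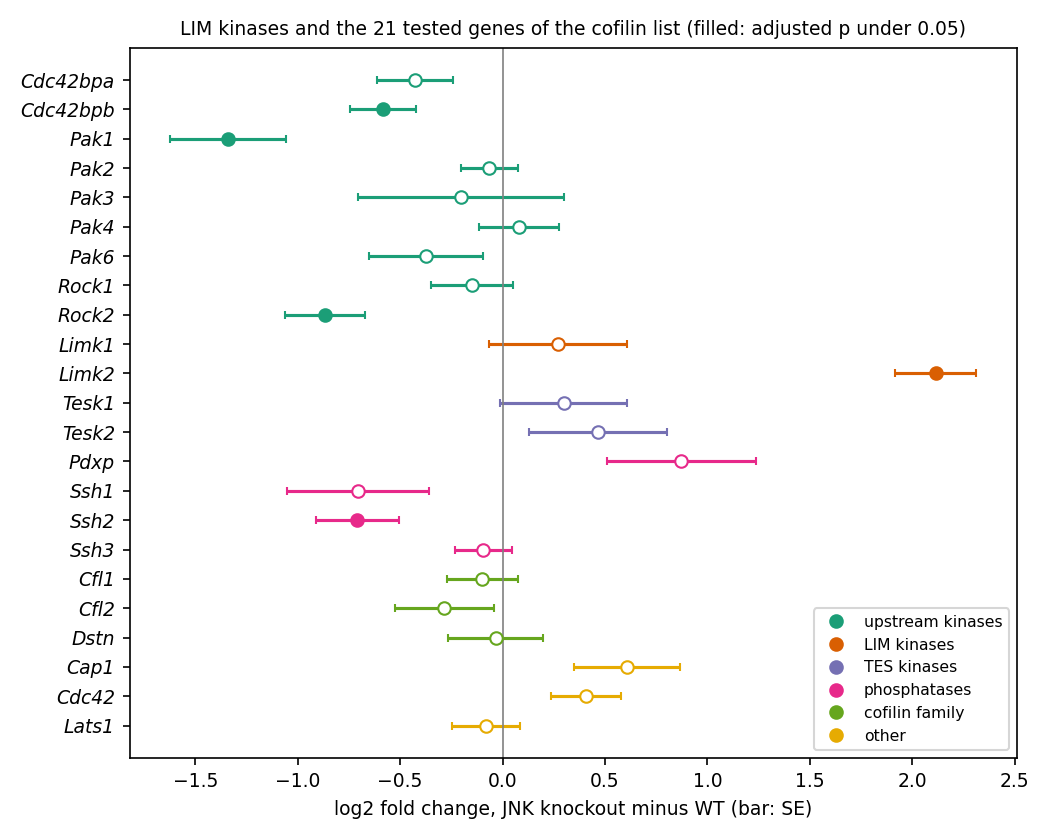
Log2 fold change, knockout minus WT, of the 2 LIM kinases and 21 genes that act on or with cofilin, with bars for the SE and filled points for an adjusted p under 0.05. Limk2 stands at 2.11, while the filled points Pak1, Rock2, Ssh2 and Cdc42bpb lie below 0.

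Of 35 genes that act inside the cell after plexins, 32 were tested, with a median log2 fold change of -0.17. By edgeR 2 were called higher and 3 lower, against 4.33% and 4.17% of all genes tested. Fes, a tyrosine kinase that acts after plexin A1, fell from 18.5 ± 5.67 CPM (SD, n = 6) to 2.37 ± 2.15 CPM (SD, n = 7; log2 fold change -2.96, SE 0.57, adjusted p = 0.0096 by edgeR's quasi-likelihood test). Its groups did not overlap, as for 4.05% of all tested genes. Rras, a small GTPase on which plexins act, fell from 80.1 ± 16.0 to 45.8 ± 14.5 CPM (log2 fold change -0.81, adjusted p = 0.031). The call was kept in 6 of the 13 fits without a line (those without WT replicates 1 or 2 or knockout replicates 2, 4, 5 or 6). It was lost with WT replicates 4 and 5 summed (adjusted p = 0.060 by edgeR's quasi-likelihood test). Dpysl5, of the collapsin response mediator family, was 16.8 ± 30.4 and 0.215 ± 0.150 CPM (log2 fold change -6.27, adjusted p = 0.013). WT replicate 3 alone held 77.1 CPM of it, the log2 fold change was -4.45 without that line, and neither limma-voom nor limma on TPM called the gene. Rhod, a small GTPase that binds plexins, rose from 33.1 ± 7.60 to 56.8 ± 11.9 CPM (log2 fold change 0.78, adjusted p = 0.023) and was not called on TPM. Gipc1, an adaptor of neuropilin 1, rose from 83.5 ± 12.9 to 118 ± 22.8 CPM (log2 fold change 0.50, adjusted p = 0.048), a call near the threshold. Of the 13 fits without a line it was kept in 3, those without WT replicate 6 or knockout replicates 3 or 6. It was lost with upper-quartile scaling, library size alone, no filter, limma-voom and TPM. It was also lost with WT replicates 4 and 5 summed and without both WT replicate 3 and knockout replicate 2.

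Co-receptors and other partners of the families formed a list of 24 genes, of which 18 were tested, with a median log2 fold change of -0.51. By edgeR none was called higher and 1 lower, against 4.33% and 4.17% of all genes tested. At an unadjusted p under 0.05, 2 were higher (Plxdc1 and Vegfa) and 6 lower (Vegfc, Flt4, Ptk7, Itgb1, Erbb2 and Pgf), and DESeq2 or limma-voom called none higher. The gene called was Vegfc, a growth factor that binds neuropilin 2, which fell from 15.5 ± 6.88 CPM (SD, n = 6) to 3.52 ± 1.58 CPM (SD, n = 7; log2 fold change -2.14, SE 0.50, adjusted p = 0.021 by edgeR's quasi-likelihood test). The plexin B partners Met and Erbb2 did not pass, with log2 fold changes of 0.11 (adjusted p = 0.87) and -0.69 (adjusted p = 0.10).

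The 2 lines that stood apart also held many of the extreme values. Of the 29 tested genes, WT replicate 3 had the highest level of all 13 lines in 6 and the lowest in 10, among them Limk1, Nrp1, Nrp2, Plxna1, Sema3c and Sema3e. Knockout replicate 2 was the highest in 6, Limk1, Plxna2, Sema3d, Sema4b, Sema6d and Sema7a. Without both lines, a comparison chosen after the data were seen, 1 gene was called higher and 4 lower. Limk2 then had a log2 fold change of 2.08, Plxnb1 of -1.19, Sema4c of -1.26 and Sema4d of -0.60, and the gene added was Sema6d. The basal keratin Krt14, at 313 to 8337 CPM in knockout lines against 47.8 to 232 CPM in WT lines, and the luminal sums given above also separated the groups. Of 9 tested basal markers, 5 were called higher in knockout lines and 4 were not called, with Mylk below 0 (-0.38). Of the 12 luminal markers, 2 were called lower, Krt8 and Krt18, and 10 were not called. Of 8 tested fibroblast markers, Col1a1 and Col1a2 were called lower in knockout lines and 6 were not called, with Dcn above 0 (1.56). The log2 fold changes were -4.40 and -6.72 (adjusted p = 0.023 and 0.013 by edgeR's quasi-likelihood test). WT replicate 3 held 184 and 160 CPM of them, and no other WT line more than 9.46 and 12.4 CPM. Lpl (-2.90) and Gfap (-1.76) were also called lower, and Tubb3 higher (4.61). Gfap reached at most 0.781 CPM. Tubb3 had 26 reads in WT lines and 732 in knockout lines, of which 233 and 323 were in replicates 2 and 3. Of 5 tested neural and glial genes, 3 were not called. The fibroblast list summed to 34.8 to 498 CPM in WT lines and 12.9 to 63.9 CPM in knockout lines. The part of these shifts in the levels of Limk2, Plxnb1, Sema4c and Sema4d was not tested.

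The called genes lay on different chromosomes. Of 27 other tested genes within 1 Mb of Limk2, 1 was called higher and 2 lower, where 8.51% of all genes were called. On chromosome 11, which holds Limk2, 7.79% of 1040 tested genes were called higher and 3.37% lower, against 4.33% and 4.17% over all genes. The median log2 fold change on chromosome 11 was 0.19, against 0.01 over all genes. On chromosomes 9, 1 and 13, which hold Plxnb1, Sema4c and Sema4d, 2.58%, 3.88% and 2.84% were called higher and 3.58%, 3.45% and 3.93% lower. Of 40 neighbours of Plxnb1, 2 were called higher and none lower, and none of the 16 neighbours of Sema4c or the 9 of Sema4d was called.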

How the data were processed

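RNA of 13 lines was sequenced as paired reads of 150 bases. The authors deposited expected counts and TPM per gene, made with RSEM after trimming with cutadapt on mm10/GRCm38, per the submitters' processing notes. The deposited TPM values are scaled for gene length to a common sum, so a group's TPM moves with all other genes. No source used here gives the aligner, the annotation, the strand setting or a tool version.

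Expected counts were rounded, filtered with filterByExpr (13058 genes kept), scaled by TMM and tested with edgeR 4.0.16's quasi-likelihood F test in R 4.3.3, with genotype as the only term. The Benjamini-Hochberg adjustment covered all 13058 genes, and an adjusted p under 0.05 counted as a call. The approximate SE is the size of the log2 fold change over the root of its F. CPM uses TMM-scaled library sizes. The biological coefficient of variation was 0.548, so the spread between lines, not depth, sets the precision.

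The genes given with values by line were every called gene, the gene with the highest mean TPM of each class, both neuropilins and LIM kinases, and the 3 uncalled genes with the smallest p. From the pathway lists, up to 6 called genes were given. Members, lists and rules were chosen with earlier results of these data known. Gene positions and promoters are those of RefSeq on GRCm38.p6, with positions found by symbol for all 33 genes. Exons came from GENCODE. Alternatives were other scalings and filters, DESeq2 1.42.0, limma-voom and limma 3.58.1 on log2(TPM + 1) and log2(TPM + 0.1), and leaving out each line. DESeq2 ran with its default settings, which replace outlying counts in groups as large as the knockout group. The script was tested on simulated data.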

Additional observations from a re-analysis of the deposited data

Results flagged for a closer look

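Lines that stood apart within their group were looked for in 36 groups of values (genes by genotype, on log2 CPM), and 2 were found, where chance flags about 1 in 20 groups. Plxna1 in knockout lines was low in replicate 5, at 152 CPM against 219.68 to 275 CPM in the other 6, and the gap to the nearest line was 0.621 of the whole range. Plxna3 in knockout lines was high in replicate 6, at 38.7 CPM against 16.4 to 23.2 CPM, with a gap of 0.596 of the range.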

How the results depend on the processing

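Limk2, Plxnb1 and Sema4c kept their direction and call under all 25 alternatives. The members called were 2 higher and 6 lower by DESeq2 and 2 and 5 by limma-voom, and 1 to 2 higher and 2 to 4 lower when single lines were left out. Over all genes, 1130 were called higher and 977 lower by DESeq2, 286 and 998 by limma on log2(TPM + 1), 322 and 981 on log2(TPM + 0.1), 96 and 116 at a threshold of 0.01, and 324 to 649 and 316 to 592 without single lines. On log2(TPM + 1), 22.3% of calls were higher, against 50.9% in the main test, and the median of all genes was -0.19 (-0.23 on log2(TPM + 0.1)), so TPM fold changes are read against that shift. Co-receptors and partners called lower were 2 with library size alone, 4 by DESeq2, 2 by limma-voom, 5 on either TPM scale, 3 without both WT replicate 3 and knockout replicate 2, and 1 to 3 without single lines. Plexin signalling genes called higher were 1 with upper-quartile scaling, library size alone, limma-voom, no filter, WT replicates 4 and 5 summed, or both lines left out, 0 on either TPM scale, and 1 to 2 without single lines; called lower they were 2 to 4 without single lines. Of the cofilin list, 2 were called lower with WT replicates 4 and 5 summed, and 2 to 3 lower and 0 to 1 higher without single lines. The log2 fold change of Limk1 reversed to -0.13 and that of Plxna1 to -0.0072 without both lines, and Plxna1 spanned -0.016 (without WT replicate 3) to 0.32 without single lines. Plxnb2 was -0.039 on log2(TPM + 1) and -0.040 on log2(TPM + 0.1). Sema5a reversed to 0.22 by limma-voom, 0.60 without WT replicate 3 (-1.08 to 0.60 without single lines) and 0.19 without both lines. Sema7a was -1.08 by limma-voom, -0.26 and -0.83 on log2(TPM + 1) and log2(TPM + 0.1), -1.04 without knockout replicate 2 (-1.04 to 0.72 without single lines) and -0.62 without both lines. The ratio of Nrp1 to Nrp2 differed by -2.32 to -1.40 without single lines. The causes were not tested. No paired analysis was possible because the labels give the groups no shared replicate numbers.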
